A study of Homo sapiens with 3 samples.

Results

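In MDA-MB-231, a human breast cancer cell line, 225 of the 444 L3MBTL3 peaks (50.7%) lay more than 1000 bp from every RBPJ peak on the same chromosome. These are called the RBPJ-distant peaks. They were chosen by the measured positions of the RBPJ peaks, so their distance from RBPJ is a description and carries no test. The other 219 peaks (49.3%), called RBPJ-proximal, comprised 128 that touched or overlapped an RBPJ peak and 91 that lay beside one. ChIP-seq, the sequencing of DNA that an antibody pulls down with its protein, used an antibody against L3MBTL3 and one against RBPJ, also named CBF1. Input DNA of the cells was sequenced as well and is not analysed here. The cells were grown in medium with serum and carried no stated genetic change or treatment, and each antibody had 1 library. There is therefore no replicate error, and every test below is over the peaks of these libraries. Neighbouring peaks are not independent, so the p-values may be too small.

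L3MBTL3 is a member of the MBT family, whose MBT repeats bind methylated lysines and which is linked to gene repression. RBPJ is the DNA-binding factor of the Notch pathway: it recruits an activating complex when Notch is cleaved and corepressors when Notch is off. The series asks where both proteins lie on chromatin, and its title places the histone demethylase KDM1A, an eraser of methyl groups on histone H3, in repression with them. Since RBPJ binds DNA by its sequence, the sequences under L3MBTL3 peaks without an RBPJ peak are shown first.

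Each of 17 RBPJ-distant peaks held a high-affinity RBPJ word (CGTGGGAA or TGTGGGAA on either strand) within 100 bp of its summit. The 8 sites below are those of the strongest such peaks, apart from HEY1. They are shown on the strand that carries the word, in hg19, with the word in capitals and 11 bases on either side.
RAB11FIP3, chr16:476733-476762, plus strand: ccgggccggggCGTGGGAActgggcaggtg
MSRB3, chr12:65673074-65673103, plus strand: cgggcccgaggCGTGGGAAccggcccgcca
TRAF2, chr9:139780499-139780528, plus strand: gacgcgcgcctCGTGGGAAccggtgtcgcc
SCIN, chr7:12610217-12610246, plus strand: gctgcgctcccCGTGGGAAgcgatcgtctc
NRARP, chr9:140195803-140195832, plus strand: cgggtgggggcCGTGGGAAgctgctccggc
RASEF, chr9:85678141-85678170, minus strand: ggactccggggCGTGGGAActggagaagcg
ADCY7, chr16:50279833-50279862, minus strand: tcccctagaacCGTGGGAAaggcgctgccg
BCL7A, chr12:122461147-122461176, minus strand: cccagtgaaggCGTGGGAAaaaaataataa

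The next 4 runs are 151 bases centred on the summit, on the plus strand, with each CpG in capitals. They contrast a CpG-dense promoter (SUSD4) with the strongest peaks away from promoters, of which SKOR1 is AT-rich and STARD8 and TWIST2 are tandem repeats.
SUSD4, chr1:223537786-223537936: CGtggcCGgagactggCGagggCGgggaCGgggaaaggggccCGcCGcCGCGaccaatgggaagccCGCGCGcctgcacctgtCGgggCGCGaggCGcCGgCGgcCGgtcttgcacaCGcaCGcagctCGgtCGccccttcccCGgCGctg
SKOR1, chr15:68132414-68132564: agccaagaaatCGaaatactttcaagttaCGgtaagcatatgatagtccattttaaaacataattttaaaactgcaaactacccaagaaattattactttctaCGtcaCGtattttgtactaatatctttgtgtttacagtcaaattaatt
STARD8, chrX:67872876-67873026: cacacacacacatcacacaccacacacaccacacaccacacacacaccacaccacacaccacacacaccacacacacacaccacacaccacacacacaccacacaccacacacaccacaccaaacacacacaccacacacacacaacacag
TWIST2, chr2:239778738-239778888: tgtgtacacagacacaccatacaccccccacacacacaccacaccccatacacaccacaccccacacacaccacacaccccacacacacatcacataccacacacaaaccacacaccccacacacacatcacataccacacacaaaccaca
SUSD4 holds 25 CpG in this stretch, SKOR1 holds 4, and STARD8 and TWIST2 hold 0.

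Most RBPJ-distant peaks were far from RBPJ rather than just past the limit. The median gap to the nearest RBPJ peak was 262 kb, and the largest was 9.28 Mb. Only 12 peaks lay 1 to 10 kb away, 50 lay 10 to 100 kb away, 120 lay 100 kb to 1 Mb away and 43 lay over 1 Mb away. The 3 members nearest to the limit were those of TFEB, a lysosomal gene regulator (gap 1136 bp, fold enrichment 4.49), of KLF10, a zinc-finger factor induced by TGF-beta (1187 bp, 5.23), and of TP53I13 (1347 bp, 4.41). The 3 proximal peaks farthest from RBPJ were those of SETD3, an actin histidine methyltransferase (888 bp, 5.79), of SOCS3, an inhibitor of cytokine signalling (856 bp, 5.64), and of TMEM51 (793 bp, 6.45). The 225 peaks formed 176 loci when members within 1 kb of each other were joined, and their nearest protein-coding genes numbered 175. In 37 loci 2 or more members stood side by side, 86 peaks in all, and a locus at each of STARD8, KAZN and INHBB had 4. Among the 225, 1 member lay within 1 kb of an RBPJ-proximal L3MBTL3 peak.

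Fold enrichment, the deposited ratio of ChIP signal over the peak caller's local background at the summit, had a median of 5.47 (quartiles 4.92 and 6.19, range 2.87 to 11.3) in RBPJ-distant peaks and 5.66 (quartiles 4.91 and 6.59, range 3.41 to 14.5) in RBPJ-proximal peaks. At or above the median of the whole list, 5.57, stood 47.1% of RBPJ-distant and 53% of RBPJ-proximal peaks (Fisher's exact test, two-sided, odds ratio 0.791, 95% Woolf interval 0.545 to 1.15, adjusted p = 0.297 over 7 features). Joining peaks within 1 kb and keeping the strongest of each locus made these shares 50.0% of 176 and 64.4% of 149 loci (odds ratio 0.552, adjusted p = 0.0346 by Fisher's exact test). The median stayed that of the single peaks. Keeping the strongest raises a share more where more peaks are joined, and 219 proximal peaks gave 149 loci against 176 from 225 distant ones. This p-value therefore carries no support. Leaving out chromosome 6 gave 47.4% and 60.2% (odds ratio 0.595, adjusted p = 0.0328 by Fisher's exact test). That removal was chosen after the data had been seen. Among peaks with a -log10 q of at least 5 the odds ratio was 1.125. A -log10 q of at least 5 was reached by 37 RBPJ-distant peaks (16.4%) and 66 RBPJ-proximal peaks (30.1%). Peak width was the only 1 of the 7 features that passed the test: 42.2% of RBPJ-distant and 59.4% of RBPJ-proximal peaks were at least as wide as the list median of 86 bp (odds ratio 0.50, 0.343 to 0.730, adjusted p = 0.00222 by Fisher's exact test). Median widths were 80 bp in RBPJ-distant peaks, 78 bp in proximal peaks beside an RBPJ peak and 121.5 bp in proximal peaks that touched one. Gaps were measured from peak edges, so a wider peak touches a neighbour more readily by construction. With limits to RBPJ of 500 bp and 10 kb the odds ratio for width was 0.445 and 0.560. The part of the edges in the width difference was not tested.

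**Figure D1:**
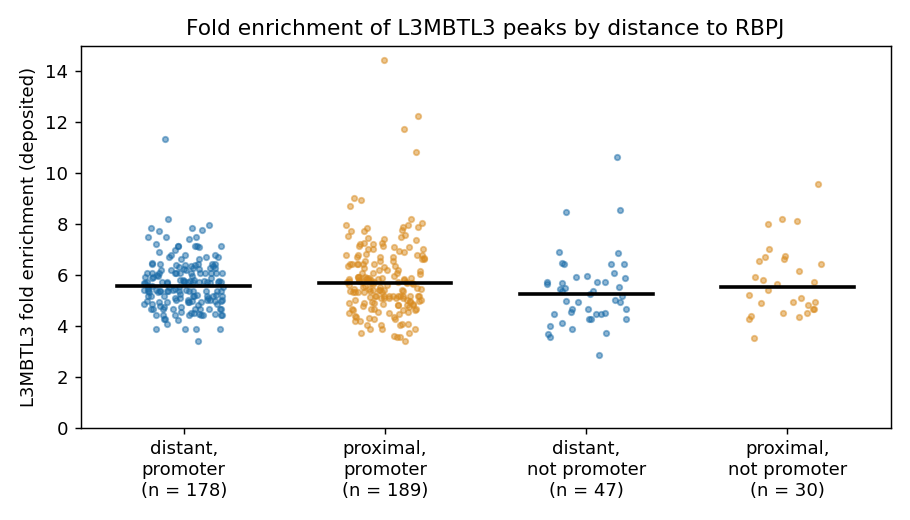
Deposited L3MBTL3 fold enrichment (y axis) of each peak, by distance to RBPJ and by promoter position; each point is a peak and each black bar a median. The medians are 5.56 in 178 distant and 5.68 in 189 proximal promoter peaks, and 5.24 in 47 distant and 5.53 in 30 proximal peaks elsewhere; the highest distant peaks are those of HEY1 at 11.3 and SKOR1 at 10.6.

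Many members have exactly the same fold and q. Of the 225, 117 shared both values with another member, and the 225 took 137 distinct pairs of values. A fold of 5.38 occurred 11 times with the same q, and a fold of 6.08 occurred 10 times. Neighbouring values such as 6.43, 6.78, 7.13 and 7.48 were 0.351 apart. The reads behind single peaks are unknown here, so ranks between such neighbours should not be read as differences.

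Promoters, taken as positions within 1 kb of a protein-coding transcription start site (TSS), held 178 of the 225 RBPJ-distant summits (79.1%, 95% Wilson interval 73.3 to 83.9) and 189 of the 219 RBPJ-proximal summits (86.3%, 81.1 to 90.2). The odds ratio was 0.601 (0.364 to 0.993) and did not pass the test after adjustment (adjusted p = 0.104 by Fisher's exact test). With a 2 kb promoter window the shares were 80.9% and 89.5% and the test passed (odds ratio 0.497, adjusted p = 0.0309 by Fisher's exact test). The RBPJ-distant promoter peaks had 137 different nearest genes. In all, 177 of 178 distant and 188 of 189 proximal summits were at a CpG-rich TSS, a class that holds 56.5% of all protein-coding TSS (odds ratio 0.941, 0.0584 to 15.2, adjusted p = 1.00 by Fisher's exact test). The windows of 201 bp around promoter summits had a median G + C content of 77.6% in RBPJ-distant and 75.6% in RBPJ-proximal peaks. Over all peaks, promoter or not, 53.8% of RBPJ-distant and 47.9% of RBPJ-proximal windows were at or above the list's median G + C (odds ratio 1.26, 0.870 to 1.83, adjusted p = 0.297 by Fisher's exact test). Promoters with divergent genes held 5 distant (2.81%) and 14 proximal (7.41%) promoter summits (odds ratio 0.361, 0.127 to 1.02, adjusted p = 0.104 by Fisher's exact test).

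Within promoters, RBPJ-distant summits lay on the transcribed side of the TSS in 107 of 178 cases (60.1%) and RBPJ-proximal summits in 90 of 189 (47.6%). The odds ratio of 1.66 (1.10 to 2.51) did not pass the test (adjusted p = 0.0738 by Fisher's exact test), although it did with distance limits to RBPJ of 500 bp (1.79) and 10 kb (1.76), with a 2 kb promoter window (1.69) and without the low-complexity windows described further on (1.66, adjusted p = 0.0485 by Fisher's exact test). That removal was chosen after the data had been seen and left the shares at 60.1% and 47.6%. The median position was 27.5 bp downstream of the TSS in RBPJ-distant peaks and 10 bp upstream in RBPJ-proximal peaks. Within 250 bp of a TSS stood 65.7% of distant and 68.8% of proximal promoter summits. Over all members, 70 summits lay in a UTR, 64 in an intron, 63 between genes and 28 in a coding exon.

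**Figure D2:**
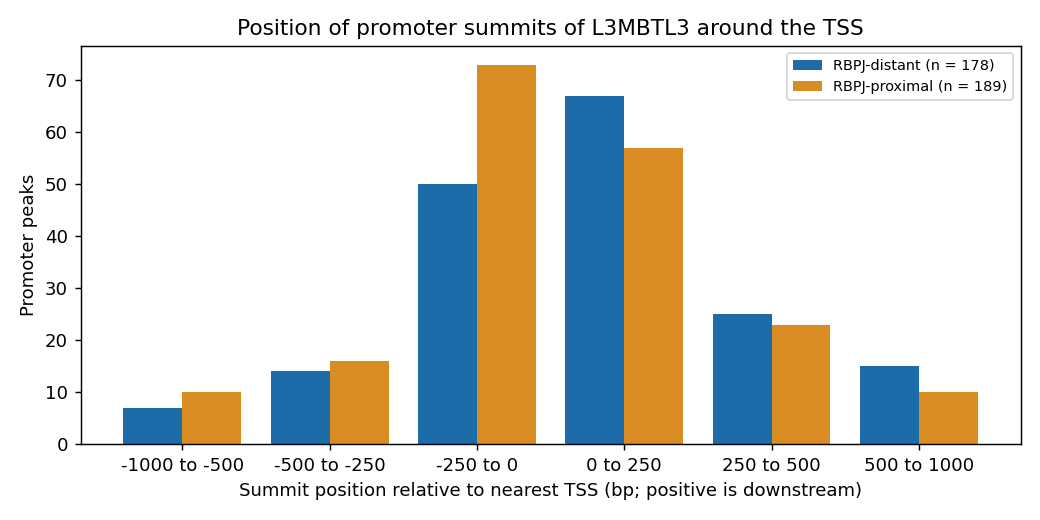
Number of promoter peaks (y axis) by the position of the summit relative to the nearest protein-coding TSS (x axis, bp, positive values downstream), for 178 RBPJ-distant and 189 RBPJ-proximal peaks. From 0 to 250 bp downstream there are 67 distant and 57 proximal summits; from 250 bp upstream to the TSS there are 50 distant and 73 proximal summits.

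Of the 47 RBPJ-distant summits outside promoters, 25 (53.2%, 95% Wilson interval 39.2 to 66.7) lay in low-complexity sequence, defined as a 201 bp window in which fewer than 50% of its 196 words of 6 bases are distinct. Outside promoters, 1 of 30 RBPJ-proximal summits did (3.33%, 0.591 to 16.7), and at promoters 0 of 178 distant and 2 of 189 proximal summits did. Over whole lists the share was 11.1% of RBPJ-distant L3MBTL3 peaks, 1.37% of RBPJ-proximal L3MBTL3 peaks and 0.752% of the 2926 RBPJ peaks. Windows centred 2 kb to either side of RBPJ-distant summits held it in 0 of 450 cases (upper Wilson limit 0.846%), and windows at all TSS in 0.0804%. This measure and its limit were chosen after the sequences had been seen, so these low-complexity shares carry no test. Without such windows promoters held 89.0% of 200 RBPJ-distant and 86.6% of 216 RBPJ-proximal summits, the other way round from all peaks (odds ratio 1.25, adjusted p = 0.536 by Fisher's exact test). The share of windows of high G + C was then 60.5% of RBPJ-distant and 48.1% of RBPJ-proximal peaks (odds ratio 1.65, adjusted p = 0.0483 by Fisher's exact test). All 25 removed distant windows lay outside promoters and had at most 68.7% G + C, below the list's median of 76.1%. Their removal raises both distant shares by construction, so these p-values carry no support.

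**Figure D3:**
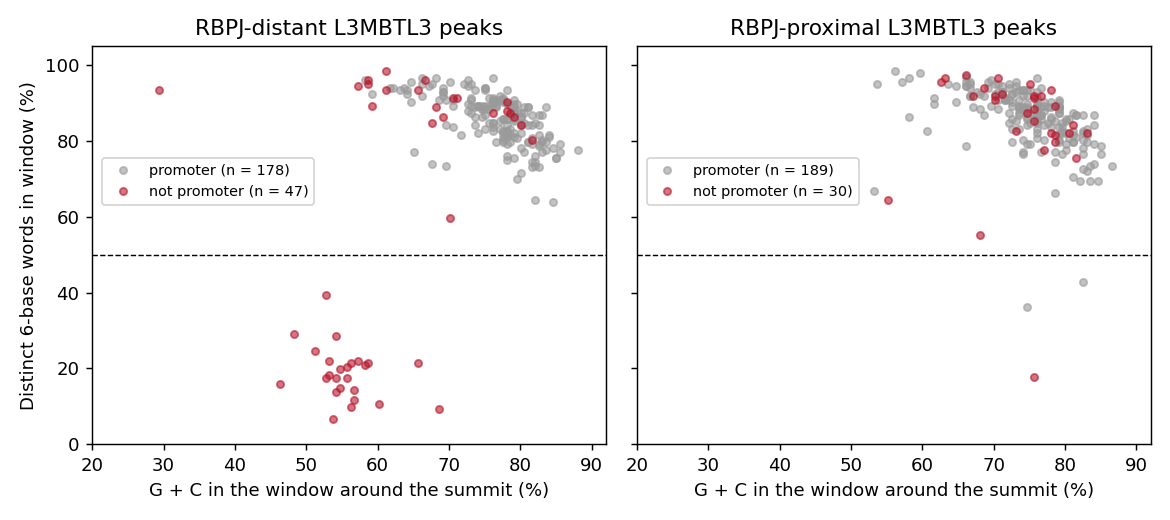
Percent of distinct 6-base words (y axis) against G + C content (x axis, percent) in the 201 bp window around each summit, for RBPJ-distant (left) and RBPJ-proximal (right) peaks; grey points are promoter peaks, red points all others, and the dashed line is the 50% limit. Below the line lie 25 distant peaks, all outside promoters, and 3 proximal peaks; the red point at the far left is the SKOR1 peak at 29.4% G + C.

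In 23 of the 25 low-complexity members, over 80% of the window was made of A and C alone or of G and T alone, as in the STARD8 and TWIST2 runs shown above. The highest such share among the other 200 members was 70.1%. Of the 25, 13 lay in introns and 12 between genes, 17 held no CpG, and 14 were in sequence whose 30-base words occur more than once in the genome. None of the 25 held the RBPJ core TGGGAA. Their median fold was 4.67, against 5.55 in the other 200 members. Input reads at these sites are not analysed here, and the part of repeated sequence in these calls was not tested.

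STARD8, a START-domain protein, had 4 such peaks in an intron 5.1 to 5.7 kb from its TSS, with folds of 8.54, 5.73, 4.97 and 4.92. The strongest, at chrX:67872928-67872983, had 98.5% of its window in A and C or G and T. TWIST2, a basic helix-loop-helix factor of mesenchyme, had an intronic peak 22.0 kb from its TSS with a fold of 8.48 (chr2:239778776-239778827). KCNH2, a cardiac potassium channel, was the nearest gene of 3 intergenic peaks 45.2 to 46.0 kb away with folds of 3.68 to 4.48. An intergenic peak 55.6 kb from the TSS of DLGAP1, a postsynaptic scaffold protein, had a fold of only 5.47 but a -log10 q of 12.5, the third highest of all members after HEY1 (15.3) and SKOR1 (14.1). Among the 10 strongest members over 10 kb from a TSS, those of TWIST2, DLEC1 (6.46), CLASP1 (6.43), THSD4 (6.41) and TMEM108 (6.08) were low-complexity windows. CLASP1 stabilises microtubules.

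The second strongest member lay 14.6 kb downstream of a TSS of SKOR1, which encodes a corepressor of the SKI family, between genes at chr15:68132404-68132605. Its fold was 10.6, and the nearest RBPJ peak was 957 kb away. With 29.4% G + C its window was the most AT-rich of the 225, and the next was at 46.3%. The window was varied in sequence (93.4% distinct words) and held no high-affinity RBPJ word. The remaining strong peaks over 10 kb from a TSS were nearest to NARF (fold 6.89, 15.8 kb), GRK5, a kinase of G protein-coupled receptors (6.85, in an intron 110 kb from the TSS), RAET1L (6.43, 20.4 kb) and DHX15, an RNA helicase (5.94, 112 kb). All 4 had more than 50% distinct words.

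The high-affinity RBPJ word was found within 100 bp of the summit in 17 of 225 RBPJ-distant peaks (7.56%, 4.77 to 11.8) and in 3 of 450 windows centred 2 kb to either side (0.667%, 0.227 to 1.94). The odds ratio was 12.2 (3.53 to 42.0, adjusted p = 1.07e-05 by Fisher's exact test over 16 words), and 1.46% of windows of the same length at all 78394 protein-coding TSS held the word. Against these flanks 4 of the 16 words searched (25.0%) passed the test. The GC box GGGGCGGGG, bound by SP factors, was in 12% of summit and 2.0% of flank windows (odds ratio 6.68, adjusted p = 2.81e-06 by Fisher's exact test), and in 13.2% of TSS windows. The E2F words TTCCCGC or TTGGCGC were in 8.89% and 2.22% (odds ratio 4.29, adjusted p = 8.08e-04 by Fisher's exact test), and in 7.43% of TSS windows. The TEAD word GGAATG was lower at summits, 1.78% against 11.8% in flanks (odds ratio 0.136, adjusted p = 1.07e-05 by Fisher's exact test), and stood at 7.87% in TSS windows. The RBPJ core TGGGAA, which is contained in the high-affinity word, was in 15.1% of summit and 19.6% of flank windows (odds ratio 0.732, 0.475 to 1.13, adjusted p = 0.338 by Fisher's exact test), and in 14.8% of TSS windows. With windows of 200 bp to either side the core was lower at summits and passed the test (24% against 34%, odds ratio 0.613, adjusted p = 0.0212 by Fisher's exact test), and over the 37 members with a -log10 q of at least 5 it leaned the other way (32.4% against 21.6%, odds ratio 1.74, adjusted p = 1.00 by Fisher's exact test). The other 11 searched were AP-1 (TGACTCA or TGAGTCA), RUNX (TGTGGTT), ETS (CCGGAAGT), NFY (CCAATCA or CCAATCG or CCAATGA or CCAATGG), CRE (TGACGTCA), E-box (CACGTG), NRF1 (GCATGCGC), YY1 (ATGGCGGC), ZNF143 (ACTACAATT), EGR (GCGTGGGCG) and NF-kB (GGAATTTCC or GGACTTTCC). Median G + C was 76.1% at summits and 48.3% in flanks, and its part in these differences was not tested. The flanks belong to the same 225 summits, and the tests did not use this pairing.

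Between RBPJ-distant and RBPJ-proximal peaks, 0 of the 16 words (0.0%) passed Fisher's exact test after adjustment, and 1 had an unadjusted p below 0.05. That word was the RBPJ core, in 15.1% of RBPJ-distant and 24.7% of RBPJ-proximal windows (odds ratio 0.544, 0.338 to 0.876; p = 0.0125 and adjusted p = 0.201 by Fisher's exact test). The high-affinity word was in 7.56% and 12.8% (odds ratio 0.558, 0.296 to 1.05; p = 0.0833 and adjusted p = 0.449 by Fisher's exact test). These calls depend on how crowded promoters are counted. With peaks within 1 kb joined and the strongest kept, both passed: the high-affinity word was in 6.82% of 176 distant and 18.8% of 149 proximal loci (odds ratio 0.316, adjusted p = 0.00964 by Fisher's exact test), and the core in 13.6% and 30.2% (odds ratio 0.365, adjusted p = 0.0058 by Fisher's exact test). Keeping the strongest peak selects among more peaks in the proximal set. Among peaks with a -log10 q of at least 5 the high-affinity word was in 18.9% of distant and 22.7% of proximal ones. The p-values of the joined peaks therefore carry no support. Within the proximal set the high-affinity word was in 18.0% of peaks that touched an RBPJ peak and in 5.49% of those beside one. Outside promoters it was in 3 of 47 RBPJ-distant and 9 of 30 RBPJ-proximal peaks. Of these 47, the 25 low-complexity windows held 0, and the other 22 held all 3 (13.6%). At promoters it was in 14 of 178 distant (7.87%) and 19 of 189 proximal peaks (10.1%). The odds ratio there was 0.764 (adjusted p = 0.912 by Fisher's exact test).

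**Figure D4:**
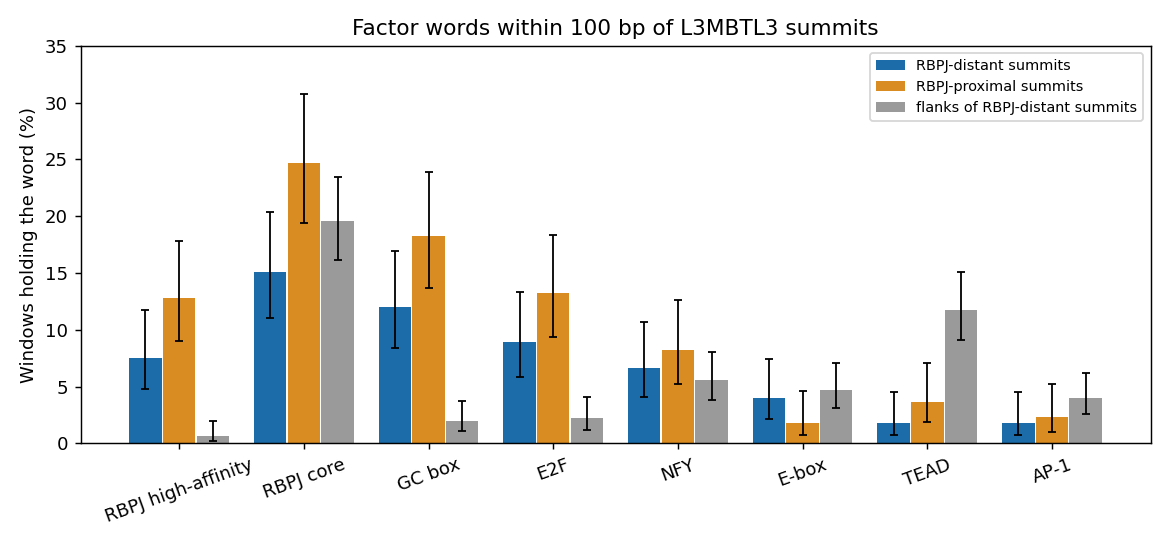
Percent of 201 bp windows holding each word (y axis) at 225 RBPJ-distant summits, at 219 RBPJ-proximal summits and in 450 windows centred 2 kb beside the RBPJ-distant summits; error bars are 95% Wilson intervals. The high-affinity RBPJ word stands at 7.56%, 12.8% and 0.667%, and the TEAD word at 1.78%, 3.65% and 11.8%.

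All 17 high-affinity sites within 100 bp of RBPJ-distant summits, 1 in each such window, read CGTGGGAA and 0 read TGTGGGAA. Over the windows of the RBPJ-proximal summits there were 23 and 5 sites of the 2 forms, and over the 450 flank windows 1 and 2. In windows at all TSS 397 sites (34.0%) had the CG form, and at CpG-rich TSS 266 of 566 (47.0%). The forms were set apart after the sites had been seen and were not tested. The sites lay a median of 50.5 bp from the summit, 8 of 17 within 50 bp, with 8 on the plus and 9 on the minus strand. Over each whole peak and 100 bp to either side, 22 members held the word, and the stronger HEY1 peak held 2. Sites farther from the summit but inside the peak were present at NARF, CELSR1 and ZDHHC11B.

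These 17 peaks were nearest to 15 genes. The strongest was that of HEY1, a repressor of the basic helix-loop-helix class induced by Notch, 416 bp upstream of its TSS, with a fold of 11.3. A second, weaker HEY1 peak (fold 5.03, -log10 q 1.55) lay 26 bp downstream of the TSS. Another site was within 100 bp of its summit but past its edge, in the gap between the 2 HEY1 peaks. The nearest RBPJ peak was 15.46 kb from the stronger HEY1 peak. NRARP, a feedback inhibitor of Notch, had its site in the UTR (chr9:140195683-140195934, fold 6.98), 14.6 kb from the nearest RBPJ peak. NRARP was also the nearest gene of a stronger, RBPJ-proximal L3MBTL3 peak, 13.9 kb upstream of its TSS (chr9:140210488-140210697, fold 8.01). That peak touched an RBPJ peak and held a high-affinity RBPJ word in its window. TRAF2, an adaptor of TNF receptors, had a fold of 7.40 with its summit 38 bp from the TSS. RAB11FIP3, an effector of RAB11 in vesicle recycling, and MSRB3, a methionine sulfoxide reductase, both had 7.84. SCIN, an actin-severing protein, had 7.21, RASEF, a RAB-family GTPase, 6.62, and BCL7A, a subunit of SWI/SNF remodelling complexes, 5.95. Of the 2 ADCY7 peaks the weaker one (6.08) had the site within 100 bp of its summit, but past its edge in the gap between the 2 peaks. The stronger one (8.19) lay 16 bp from the TSS with no site in its window. The other sites were at peaks nearest to PDE5A (4.92), KAZN (4.66 and 4.41), GOLGA8M (4.26), NR2F6 (4.26), GUCY1A1 (3.87) and ZNF337 (3.56). The site of the KAZN peak of 4.66 also lay past the edge of its peak. The ZNF337 peak lies between genes, 161487 bp from the nearest TSS, and is 1.56 kb from an RBPJ peak. That of GOLGA8M lies 25.5 kb from a TSS in sequence that occurs more than once in the genome.

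Of the 20 members with the highest fold, 17 were at promoters and the other 3 were those of SKOR1, STARD8 and TWIST2. SFMBT1, an MBT-repeat protein like L3MBTL3 itself, had a fold of 7.95 in its UTR, 212 bp downstream of a TSS (chr3:53079808-53079884), and a second peak of 6.38 on the other side of that TSS. SUSD4, a regulator of complement, had 7.77 and PANK4, of the pantothenate kinase family, 7.73. CHD1L, a chromatin remodeller, DGKH, a diacylglycerol kinase, and ABCA3, a lipid transporter of lung surfactant, all had 7.48, and ABCA3 had a second peak at 7.13. At 7.13 stood also CELSR1, a cadherin of planar cell polarity, STOX2, KAZN and an unnamed gene, ENSG00000289281. DGKH had in addition a stronger RBPJ-proximal peak (chr13:42623360-42623456, fold 8.93), which touched an RBPJ peak and held a high-affinity RBPJ word in its window.

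Gene lists were read against all protein-coding genes, of which 163 of 19756 (0.825%) had an RBPJ-distant L3MBTL3 summit within 10 kb of a TSS and 157 (0.795%) an RBPJ-proximal one. Of 26 Notch targets 3 had an RBPJ-distant summit (HEY1, NRARP and HES5) and 3 an RBPJ-proximal one (HES4, HEY2 and NOTCH1). The RBPJ-proximal peak 13.9 kb from the TSS of NRARP lies beyond the 10 kb and is not counted. The HES5 peak (fold 7.73) is the PANK4 peak, 466 bp from a TSS of PANK4 and 3201 bp from one of HES5, another Notch-induced repressor. Of 37 Notch pathway genes 0 had an RBPJ-distant and 2 an RBPJ-proximal summit. Of 34 corepressor and demethylase genes, 1 had an RBPJ-distant summit, CTBP1, a corepressor (fold 5.92), and 4 an RBPJ-proximal one, BEND6, KDM1B, PHF21A and SPEN. Of 36 MBT, SAM and Polycomb genes, 1 had an RBPJ-distant summit, SFMBT1, and 1 an RBPJ-proximal one, SAMD1. No list test was made on these counts.

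Beyond the Notch and chromatin lists, some lists had genes near peaks of both sets. Of 116 developmental transcription factors 5 had an RBPJ-distant summit and 5 an RBPJ-proximal one, FOXQ1 being in both counts. The RBPJ-distant ones were ZIC2 and ZIC5, neighbouring zinc-finger genes that share a peak of fold 5.09, NR2F6, an orphan nuclear receptor, FOXQ1, a forkhead factor, and PBX3, a homeodomain factor. Of 51 vascular genes 4 had an RBPJ-distant summit and 1, RASIP1, an RBPJ-proximal one. The 4 were STARD8, ADCY7, an adenylyl cyclase, UNC5B, a netrin receptor (6.33), and EFNB2, an ephrin ligand (5.38). Single genes were near an RBPJ-distant summit in the AP-1 and immediate early list (KLF10, 1 of 35) and the NF-kB list (TRAF2, 1 of 30). In each of these lists 1 other gene was near an RBPJ-proximal summit. Of 383 ubiquitin pathway genes 1 (0.261%) had an RBPJ-distant summit, FBXL16 (5.72, 9.6 kb from its TSS), and 2 (0.522%) an RBPJ-proximal one. Of 86 kinesin, dynein and tubulin genes 1 (1.16%) had an RBPJ-distant summit, DYNLL2, a dynein light chain (6.19), and 1 an RBPJ-proximal one. Over all protein-coding genes these shares were 0.825% and 0.795%. In 16 of the 26 lists no gene was near an RBPJ-distant summit.

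RBPJ peaks were unevenly spread over the chromosomes, which bears on which L3MBTL3 peaks can be distant. Over 23 chromosomes the RBPJ list held 2.02 to 31.8 peaks per 100 protein-coding genes. Chromosomes 13, 15, 16, 22 and X each had fewer than 5, together 97 RBPJ peaks for 3061 genes. They held 39 RBPJ-distant (17.3%) and 6 RBPJ-proximal (2.74%) L3MBTL3 peaks. All 15 L3MBTL3 peaks of chromosome 16, among them those of ADCY7, RAB11FIP3 and ABCA3, were distant, as were 8 of 9 on chromosome 15. On chromosome 6, with the densest RBPJ peaks, 14 of 57 were distant, and on chromosome 20, 3 of 18. RBPJ peaks per 100 genes were 3.17 on the 5 sparse chromosomes and 16.9 on the others, and L3MBTL3 peaks per 100 genes were 1.47 and 2.39. On the other chromosomes 186 of 399 L3MBTL3 peaks (46.6%) were distant. Across chromosomes the percent of distant peaks and the RBPJ density had a Spearman correlation of -0.74 (n = 23, a description, since the rule uses the RBPJ positions). The cause of the uneven spread was not tested.

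**Figure D5:**
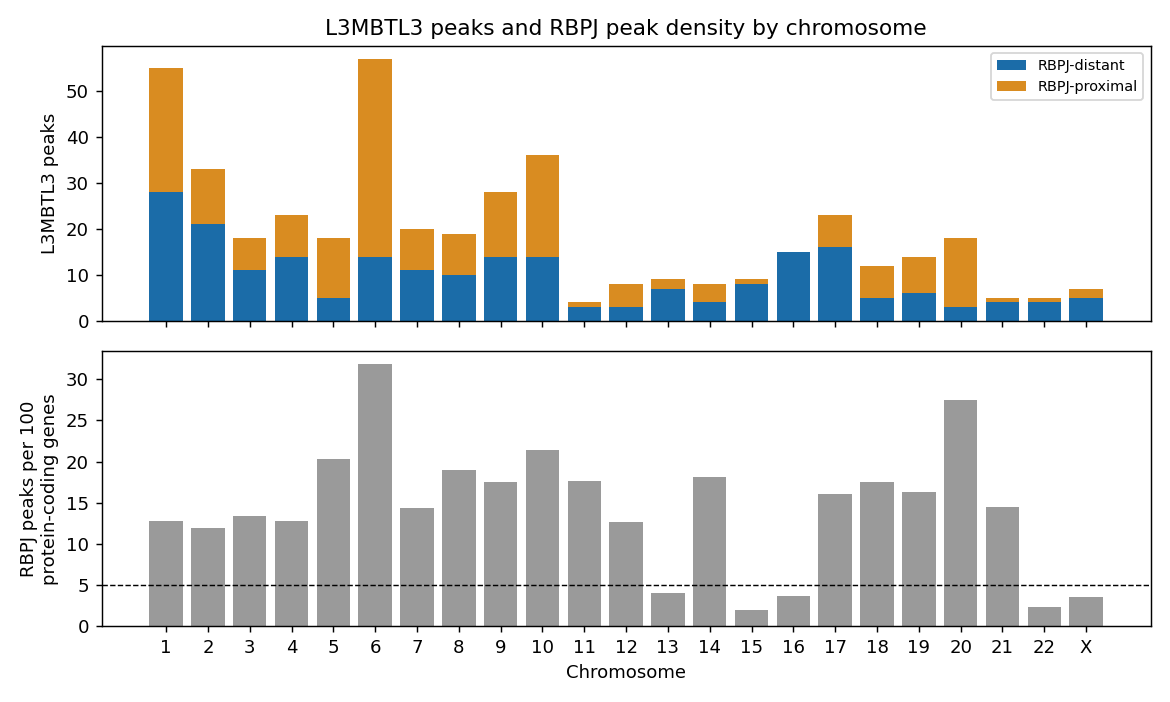
Top, number of L3MBTL3 peaks (y axis) on each chromosome (x axis), RBPJ-distant in blue at the base and RBPJ-proximal in orange above; bottom, RBPJ peaks per 100 protein-coding genes, with a dashed line at 5. The 5 chromosomes under the line (13, 15, 16, 22 and X) hold 39 distant and 6 proximal peaks.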

How the data were processed

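Per the labels' protocols, libraries were sequenced for 50 cycles from a single end to 30 to 40 M aligned reads (M, megareads). Trimmomatic, BWA 0.7.15, MACS2 and hg19 are named in the submitters' processing notes. The MACS2 version and cutoff, and its use of the input, are not stated in the sources used here. The deposited peak lists give a fold enrichment (a ratio), −log10 p and −log10 q values and a score, which equals 10 times the −log10 q truncated. Reads per peak, and so the error of a fold, are unknown.

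Distances run between interval edges. Genes and sequence came from GENCODE 44 lifted to GRCh37 (19756 protein-coding genes on chromosomes 1 to 22 and X). Words were sought on both strands within 100 bp of summits and in flanks centred 2 kb away; TSS windows have the same 201 bp. A TSS was CpG-rich with an observed over expected CpG ratio above 0.6 in 1 kb. Tests were two-sided Fisher's exact tests (scipy 1.17.1) over peaks, Benjamini-Hochberg adjusted over 7 features and over 16 words in each comparison, with Wilson and Woolf intervals that cover counting error only; 0.5 was added to each count of an odds ratio where one was 0. Scripts were tested on simulated data. Members, lists and words were chosen with earlier results of these data known. Named peaks are the 20 of highest fold, those with a high-affinity RBPJ word, the 10 strongest over 10 kb from a TSS, those near genes of the lists (where a list holds more than 3, those beyond the 3 strongest were named after their values were seen), and the 3 on each side of the 1000 bp limit; KCNH2 and DLGAP1 were named after their values were seen. Of the gene lists searched, 1 is not reported here.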

Additional observations from a re-analysis of the deposited data

How the results depend on the processing

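Each result was recomputed with distance limits of 500 bp and 10 kb, a −log10 q of at least 5 in either list, joined peaks, other promoter and word windows, other flanks and other gene distances. Chosen after seeing the data were removal of repeated windows, of low-complexity windows, of the 5 chromosomes sparse in RBPJ peaks and of chromosome 6. Of these values, 123 kept their direction and call, or a count within 1.5 times. Another 11 kept their direction but newly passed the test, 7 turned direction and 5 counts moved further. Peak width kept both under each alternative run. The promoter odds ratio turned to 1.25 without low-complexity windows (89.0% of 200 distant and 86.6% of 216 proximal peaks, Fisher's exact, adjusted p = 0.536) and passed the test at 0.497 with a 2 kb window. The share at CpG-rich TSS, 1 peak short of all in each set, turned to 1.03 (500 bp), 3.51 (strict RBPJ list) and 1.09 (joined peaks). The downstream share passed at 1.79 (500 bp), 1.76 (10 kb), 1.69 (2 kb window) and 1.66 (without low-complexity windows). The strong-fold share turned to 1.12 in the strict L3MBTL3 list and passed at 0.552 (joined) and 0.595 (without chromosome 6). Joining keeps the strongest peak, which raises this share more where more peaks are joined. The high-G + C share turned to 0.850 in the strict L3MBTL3 list and passed at 1.65 without low-complexity windows. Taking out these windows raises the distant share by construction, both here and for promoters. Joined peaks made the high-affinity and core words pass against proximal peaks (0.316 and 0.365), so 2 words were called. These 2 calls carry no support, since joining keeps the strongest peak and joined more proximal peaks. Against flanks the core turned to 1.74 in the strict L3MBTL3 list and passed at 0.613 with 200 bp windows, and 8 words were called with the strict RBPJ list, which left 346 distant peaks. Genes near distant peaks numbered 35 with the strict L3MBTL3 list, 246 with the strict RBPJ list and 330 within 50 kb. Apart from the low-complexity windows and the smaller or larger sets named, the cause was not tested. Libraries could not be paired because each antibody has 1. Flank windows belong to the same summits, but the tests against flanks did not use this pairing. Peak lists without reads give no depth per peak.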

Other observations

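Some members sit near signalling genes that no list covered; these groups were put together after the values had been seen and carry no test. Over all protein-coding genes 0.825% had an RBPJ-distant and 0.795% an RBPJ-proximal summit within 10 kb. WNT3, WNT7B and WNT9A, 3 of 19 WNT ligand genes, had RBPJ-distant L3MBTL3 summits within 10 kb, and 0 of 19 had an RBPJ-proximal one. The folds were 6.29 at WNT3, 6.08 and 5.73 at WNT7B, and 5.87, 5.56 and 4.26 at WNT9A, all at promoters. FZD8, a Frizzled receptor for WNT ligands, had peaks of 5.17 and 4.74. Of 38 genes of cyclic nucleotide turnover, 4 had an RBPJ-distant summit (ADCY7, GUCY1A1, PDE10A and PDE5A) and 0 an RBPJ-proximal one. High-affinity RBPJ words were present at ADCY7, GUCY1A1 and PDE5A. Of 21 KCTD genes, also grouped afterwards, 2 had an RBPJ-distant summit (KCTD1 and KCTD12) and 1, KCTD6, an RBPJ-proximal one. DLK2, a protein related to the Delta ligands of Notch, had peaks of 5.46 and 4.24, 738 and 26 bp downstream of a TSS, the nearest RBPJ peak being 84.9 kb away from the stronger.

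INHBB, a subunit of activin B, had 4 peaks over 845 bp (folds 6.69, 6.32, 5.63 and 4.66) and another, of fold 6.90, more than 1 kb from them. PDGFA, a platelet-derived growth factor chain, had 3 (5.98, 5.76 and 4.64) over 1059 bp. Loci of 3 peaks were also at RAB11FIP3, TARBP1, NT5M, WNT9A and KCNH2.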
